A study of Saccharomyces cerevisiae with 41 samples.

Results

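Dimethyl sulfate (DMS) probing of the mature small-subunit rRNA of Saccharomyces cerevisiae was examined as the drop-off rate of reverse transcriptase in DMS-treated RNA against that in untreated control RNA. The nucleotides described are the adenines and cytosines from U1 to A1749 of the 18S rRNA, 805 of the 831 in the table of 1800 nucleotides. Each was read from the stop listed 1 nucleotide 3' of it, and the last 50 listed stops were left out because 34 of them in the DMS column and 36 in the control column are listed at 0. The DMS column is the authors' mean of 3 samples and the control column their mean of 3 others, so no value has an SD and no difference has a test. All 6 samples come from BY4741 with fun12-TAP::K.I.HIS3, a strain whose translation initiation factor Fun12 carries a TAP tag, and are labelled as purified 18S rRNA. Their treatment is given as DMS for one group and as control for the other. That they stand for 80S ribosomes rests on the strain, which is that of the samples titled 80S in the same series of 41. The dose and time of DMS, and whether it met cells or purified particles, were not given in the labels. The labels name total RNA of cultures as the source, while their protocols describe pull-down through tagged proteins.

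DMS methylates the pairing edge of adenine and cytosine where the base is neither paired nor buried in a protein contact, and the methyl group stops reverse transcriptase just before the base. Guanine and uracil have no such reaction at the pairing edge under usual conditions, so their stops serve as a background within the same libraries. The 18S rRNA folds into a body (the 5' and central domains), a head (the 3' major domain) and the long helix h44 of the 3' minor domain. The decoding centre lies where they meet.

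The stop 3' of U1191 was near the level of the other 18S columns, which reads a base modification and not the cleavage of the 3' end. The hypermodified U1191 in the loop of helix h31 blocks reverse transcriptase once it is complete. The rate at the stop 3' of it was 0.770 in the DMS column and 0.833 in its control. The other untreated 18S columns of the series had 0.787 and 0.712 there, and the 2 untreated columns of 20S pre-rRNA 0.219 and 0.125. Mean rates were nearly equal, at 0.0281 in the DMS column and 0.0273 in the control column. Whether the columns were scaled to one another is not known, so a DMS signal is read here relative to the rest of its column. Across nucleotides the control had r = 0.957 with the late control of the 1M7 set and r = 0.889 with the DMSO column of 80S, 2 columns from other samples of the same strain or, in 1 of the 3 late control samples, of a Nob1-TAP strain.

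Reactivity is the DMS rate minus the control rate, divided by 0.0371, the mean difference over the 8% of nucleotides that follow the highest 2%. A nucleotide is called reactive here at 0.3 or more, a difference in rate of 0.0111, and strongly reactive at 0.7 or more, a difference of 0.0260. At the first threshold 14.6% of all nucleotides passed and at the second 7.60%.

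Sequences are shown from the 5' to the 3' end to place the strongest local signals, as the window of 30 nucleotides with the highest mean reactivity over adenines and cytosines in each of 9 stretches of the molecule. Capitals mark the reactive adenines and cytosines.
A55 to A84, 5' domain: augucuAAguAuAagcAAuuuAuacAgugA
A505 to A534, 5' domain: AauuggAAugAguacaAuguAAAuAccuuA
G607 to A636, 5' to central domain: guuguugcAguuAaAAagCucguaguugAA
U718 to C747, expansion segment 6: uuguggcucuuggcgAAccaggACuuuuac
G1110 to A1139, end of the central domain: gggaguAuggucgcaaggcugAAAcuuAAA
G1243 to U1272, head: gagCucuuucuugauuuugugggugguggu
A1296 to A1325, head: agugauuugucugcuuAAuugcgAuaacgA
G1477 to G1506, head: ggagcCAgcgAguCuAAccuuggccgagag
U1656 to G1685, helix h44: uugAauggcuuagugaggccucaggAucug
In A55 to A84 reactive adenines took 9 of the 15 adenines and cytosines, with a mean reactivity of 1.43. In A505 to A534 they took 10 of 16, with a mean of 1.27. Their medians were 0.799 and 0.514. The windows G1243 to U1272 and U1656 to G1685 owed their means of 1.35 and 1.11 mainly to 1 nucleotide each, C1246 and A1681. Their medians were -0.147 and 0.0670. Single nucleotides weighed in other means too. A534 had 9.90 in its window, and A65 and A67 had 5.84 and 6.42 in A55 to A84. A1139 had 9.89 in G1110 to A1139, with a mean of 1.09 and a median of 0.280. U718 to C747 had a mean of 1.21 and a median of -0.209.

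Adenines carried the map. The mean rate over 466 adenines was 0.0499 with DMS and 0.0267 in the control, and 399 of them (85.6%) lay above their control. Reactivity reached 0.3 at 214 adenines (45.9%) and 0.7 at 117 (25.1%), against the 14.6% and 7.60% of all nucleotides. The median adenine had a reactivity of 0.256, with an interquartile range of 0.0598 to 0.696. Cytosines behaved more like the background, with a mean rate of 0.0234 with DMS and 0.0264 in the control. Of 339 cytosines, 26 (7.67%) were reactive and 113 (33.3%) lay above their control.

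Guanines and uracils set the floor of the map. Their mean rates were 0.0198 and 0.0182 with DMS, against 0.0297 and 0.0264 in the control. The median ratio of DMS to control was 0.638 at guanines and 0.723 at uracils, 0.828 at cytosines and 1.74 at adenines. With column means this close and the calculation of the rate not given, whether guanines and uracils stopped less in absolute terms cannot be told. The 95th percentile of reactivity over both bases was 0.0939, which 321 adenines (68.9%) and 58 cytosines (17.1%) exceeded. Reading the same stops at another nucleotide spread them over the bases. Of the 255 reactive stops, 214 (83.9%) had an adenine 1 nucleotide 5', 107 (42.0%) at the listed nucleotide and 88 (34.5%) 2 nucleotides 5'.

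**Figure D1:**
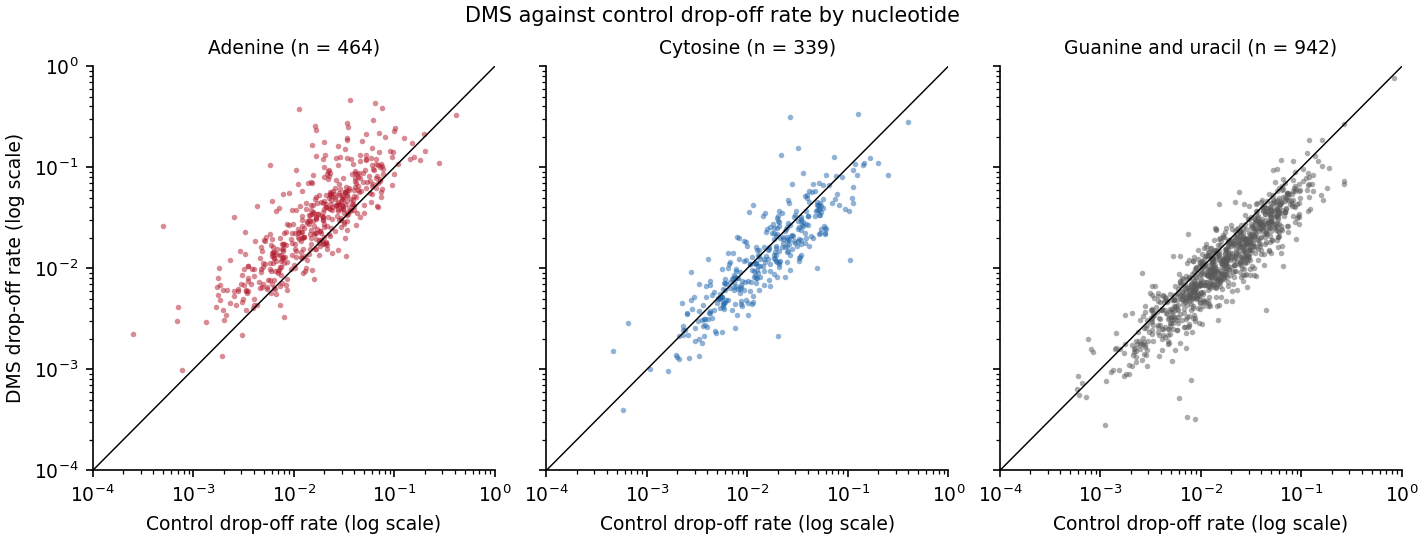
DMS drop-off rate (vertical, log scale) against control drop-off rate (horizontal, log scale) for each nucleotide from U1 to A1749, in panels of adenines, cytosines, and guanines with uracils; the line marks equal rates, and the 4 nucleotides listed at 0 in either column are left out. Adenines lie above the line at 85.6% of nucleotides counted with those zeros, cytosines at 33.3%, and guanines and uracils at 17.1%.

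Single adenines reached far above the rest. A1681 in helix h44 had the highest reactivity of the molecule, 11.6, with a rate of 0.468 with DMS and 0.0364 in the control. A534 in the 5' domain followed with 0.432 and 0.0647, a reactivity of 9.90. A1139, close to the junction of body and head, had 0.379 with DMS and 0.0113 in the control, a ratio of 33.6 that was the largest among the 30 strongest adenines and cytosines. A352 had 0.386 and 0.0752, a reactivity of 8.38. No other adenine exceeded 7.

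Some of the next adenines lay close to one another and others singly. A65 and A67, 2 nucleotides apart near the 5' end, had rates of 0.234 and 0.255 with DMS against 0.0166 and 0.0164 in the control. Their reactivities were 5.84 and 6.42. A179 and A181 had reactivities of 3.64 and 5.79, and A733 and A734 of 4.03 and 4.39, with A740 at 4.32. A706 (6.41), A929 (6.27), A970 (4.21), A412 (4.09), A529 (4.04), A312 (3.86), A1721 (3.63), A579 (3.44) and A104 (3.21) completed the 20 strongest adenines. Expansion segment 6, a eukaryote-specific insertion on the solvent side of the platform, held 7 of the 30 strongest adenines and cytosines. The stretch from U1 to G290 held 8 and that from G291 to U546 held 6. In that order these stretches hold 85, 134 and 132 of all 805 adenines and cytosines.

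**Figure D2:**
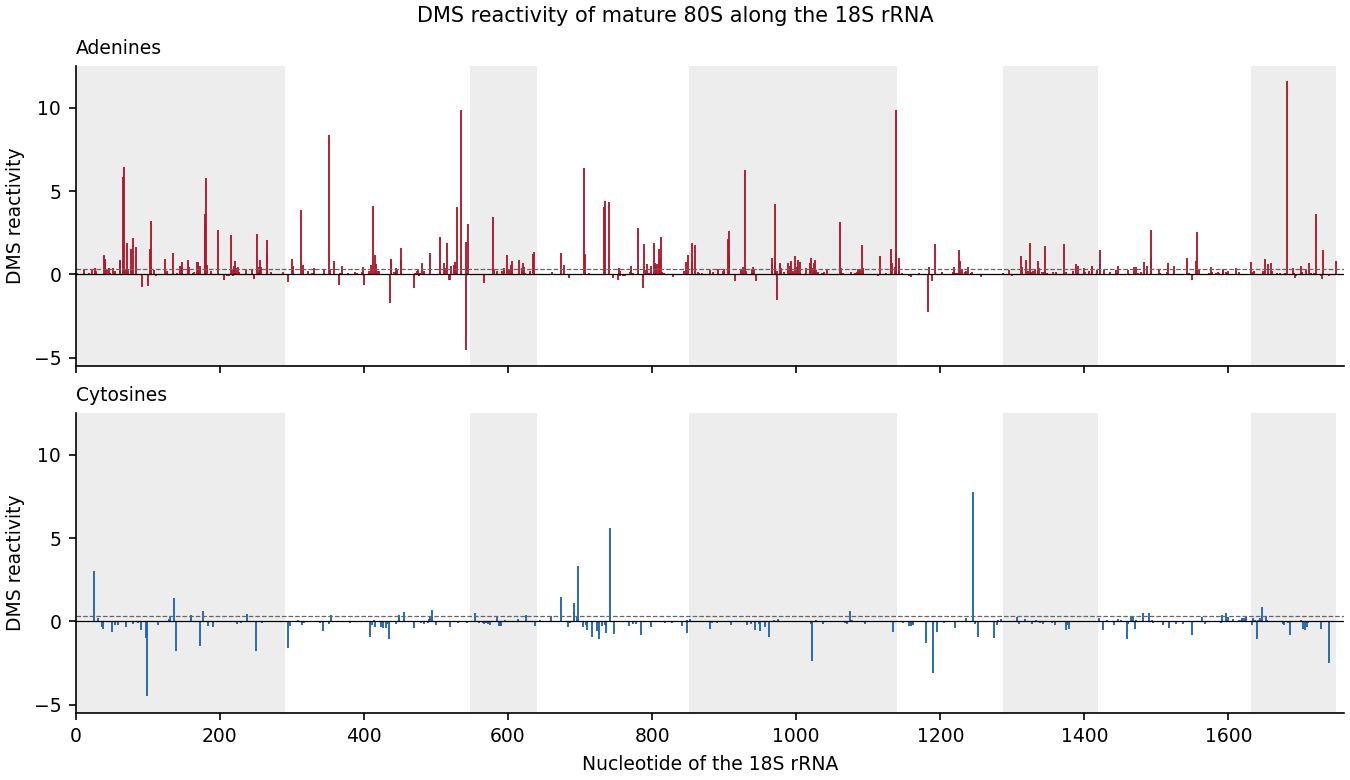
DMS reactivity (vertical, no unit) at each adenine (upper panel) and cytosine (lower panel) along the 18S rRNA (horizontal, nucleotide number), with alternate stretches shaded and the threshold of 0.3 dashed. Adenine peaks at A352, A534, A1139 and A1681 exceed 8, while among cytosines C25, C697, C741 and C1246 exceed 2.

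Reactive cytosines were few and uneven. C1246 in the head had 0.316 with DMS and 0.0266 in the control, a reactivity of 7.79 that only 4 adenines exceeded. C741 and C697, both in expansion segment 6, had reactivities of 5.58 and 3.296, and C25 near the 5' end had 2.99. No other cytosine passed 2, and the next were C674 (1.45), C136 (1.42) and C692 (1.10). With the late control of the 1M7 set in place of its own, C674 had -0.514, over an untreated rate of 0.144 there and 0.0725 in its own control, and with the DMSO column of 80S it had 0.248. Expansion segment 6 held 6 reactive cytosines of 40 and the 5' stretches 5 of 49 and 5 of 52, while U851 to G1140 held 1 of 48 and G1288 to G1419 0 of 22.

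At 15 guanines and uracils the reactivity also passed 0.3, and 10 of these 15 had a reactive adenine or cytosine next to them, against 22.8% of all 944 guanines and uracils. The highest were G1318 (0.188 with DMS and 0.118 in the control, reactivity 1.88), G1488 (1.51), G976 (1.14), U618 (1.06), U1253 (0.941) and U178 (0.903). The guanines all had a ratio under 2, and G976 had 0.217 with the late control of the 1M7 set. U1253 had -1.52 with the late control of the 1M7 set and -0.0801 with the DMSO column of 80S, so its sign rests on the control of the DMS set.

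Along the molecule, the stretches U1 to G290 and U851 to G1140 had the highest shares of reactive adenines. From U1 to G290, 47 of 85 adenines (55.3%) were reactive, with a median reactivity of 0.386. From U851 to G1140, a stretch that holds the platform helices, 47 of 85 (55.3%) were reactive, with a median of 0.321. Expansion segment 6, U640 to A850, had 22 of 45 (48.9%), and U547 to U639, with helix h18 whose loop forms one wall of the decoding centre, had 12 of 25 (48.0%). G291 to U546, the rest of the 5' domain before h18, had 34 of 80 (42.5%), below the 45.9% of all adenines.

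The head was uneven. From G1141 to A1287, which takes in the start of the neck helix h28 and the first helices of the head, 9 of 37 adenines (24.3%) were reactive and the median reactivity was 0.0676, the lowest of the 9 stretches. The strongest adenines there were A1193 (0.0834 with DMS, 0.0156 in the control, reactivity 1.83) and A1226 (1.48). From G1288 to G1419 the share was 15 of 32 (46.9%), with A1325 (1.91), A1371 (1.83) and A1346 (1.72) at the top and no nucleotide past 2. From C1420 to A1631 it was 18 of 46 (39.1%), with A1492 (2.66) and A1556 (2.57). From C1632 to A1749, most of it helix h44, it was 10 of 31 (32.3%), in spite of A1681 and A1721.

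The 2 longest runs with no reactive adenine or cytosine lay in the head. U1247 to U1311 spans 65 nucleotides with 13 adenines and cytosines, and U1144 to A1183 spans 40 nucleotides with 19. Only 5 of the 13 and 9 of the 19 are adenines, and over the molecule 7.67% of cytosines were reactive. The window with the most adenines and cytosines and none reactive lies inside the second run. It holds G1150, the counterpart of a guanine beside the mRNA in the bacterial P site.
U1145 to C1174, head: ugacggaagggcaccaccaggaguggagcc
Its 16 adenines and cytosines, 8 of them adenines, had a median reactivity of -0.0582. In the window with the most signal, A55 to A84, the median was 0.799 over 15. Both windows were picked by these same values, so the contrast of their medians follows from the choice.

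Reactivity moved with the untreated rate and with the base at the stop. Adenines followed by adenine had a mean rate of 0.0812 with DMS and 0.0458 in the control, and 92 of 141 (65.2%) were reactive. Adenines followed by guanine had 0.0213 and 0.00940, and 26 of 116 (22.4%) were reactive. Adenines followed by uracil (69 of 126, 54.8%) and by cytosine (27 of 83, 32.5%) lay between. As a ratio of the means the order was different, with 1.77 before adenine, 1.84 before uracil and 2.27 before guanine, and cytosine between uracil and guanine. The share of adenines with a DMS rate of at least 2 times the control ranged from 36.2% before adenine to 42.1% before guanine. The share reactive thus varied by the following base far more on the scale of rate differences than on that of ratios.

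**Figure D3:**
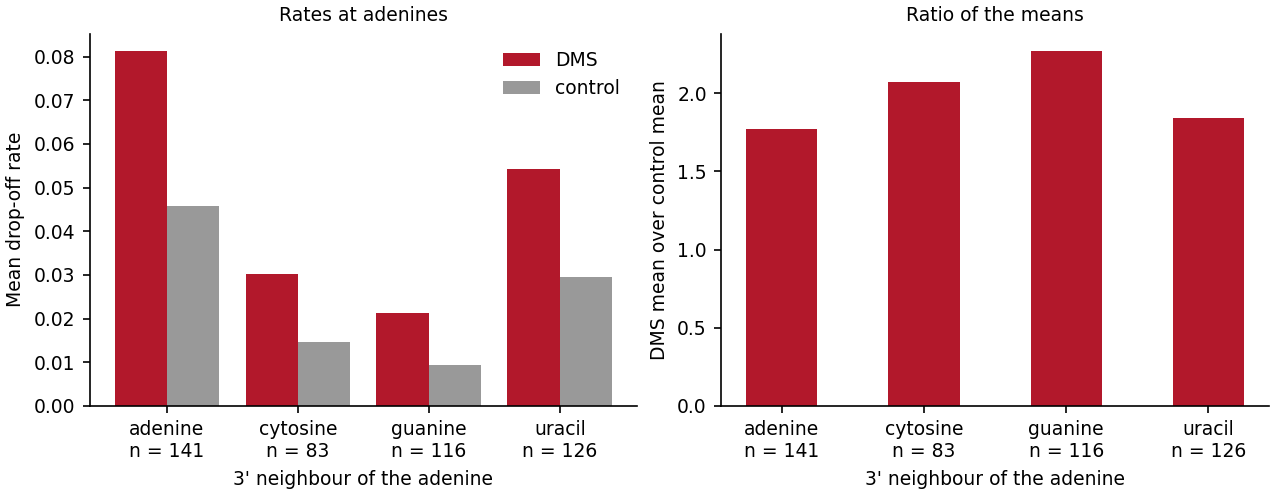
Left, mean drop-off rate at adenines with DMS and in the control; right, the ratio of both means, each by the nucleotide 3' of the adenine (horizontal, with the number of adenines). The DMS bar stands at 0.0812 before adenine and 0.0213 before guanine, while the ratio is 1.77 and 2.27.

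On the ratio scale the stretches kept some of their order. The median ratio over adenines was 1.98 from U1 to G290 and 1.92 from U851 to G1140, and again the lowest from G1141 to A1287, at 1.35. In that stretch 7 of 37 adenines (18.9%) reached a ratio of 2, against 182 of 464 (39.2%) over the molecule. The stretch C1632 to A1749, low by the difference, had a median ratio of 1.93 and 13 of 29 adenines at 2 or more (44.8%), and its median control rate at adenines was 0.00793, against 0.0171 over all adenines. G291 to U546, near the middle by the difference, had a median ratio of 1.49. The stretch from G1141 to A1287 was the lowest of the 9 on both scales.

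Adenines in runs were reactive more often than single ones. Of 220 single adenines 66 (30.0%) were reactive, of 159 in pairs 91 (57.2%), of 66 in runs of 3 45 (68.2%) and of 21 in runs of 4 or more 12 (57.1%). The control rates moved with this as well, with means of 0.0182 at single adenines and 0.0370 in pairs. The ratios of the means were 1.86 for single adenines and 1.83 for pairs.

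Pairing was predicted from the sequence alone with RNAplfold, which gives each nucleotide a probability of being unpaired in naked RNA over a local window. Of 175 adenines with a probability of 0.8 or more, 101 (57.7%) were reactive, with a median reactivity of 0.413. Of 78 under 0.2, 18 (23.1%) were reactive, with a median of 0.121. Adenines between the classes had 95 of 213 (44.6%). Cytosines had 8 of 36 (22.2%) at 0.8 or more and 10 of 147 (6.80%) under 0.2. Guanines and uracils had 2 of 153 (1.31%) and 5 of 333 (1.50%) in the same classes. In the minimum free energy fold of the whole molecule the contrast was smaller, with 53.4% of unpaired and 37.3% of paired adenines reactive, and 9.78% of unpaired and 6.88% of paired cytosines. Of the 20 strongest adenines, 10 had a probability of 0.8 or more, beside 175 of all 466 adenines. Among these 10 were A1681 (0.951), A352 (0.986), A534 (0.902) and A1139 (0.838). The 2 under 0.2 were A67 (0.0859) and A65 (0.0483), beside 78 of all 466. The median control rate moved with the class too, at 0.0231 for adenines of 0.8 or more and 0.0105 for those under 0.2, and its part in the difference was not tested. The prediction knows neither proteins nor tertiary contacts of the ribosome.

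DMS was then set beside 1M7 and NAI, which acylate the ribose of flexible nucleotides, in other samples of 80S. The 1M7 column is the mean of 3 samples against the late control, and the NAI column the mean of 2 against a DMSO column of 2, so the 3 reagents share no control. Each stop was again assigned to the nucleotide 5' of it. Over all nucleotides 16.6% reached 0.3 with 1M7 and 11.7% with NAI. Of the 214 DMS-reactive adenines 98 (45.8%) also reached 0.3 with 1M7, against 28.5% of all adenines, and 40 (18.7%) with NAI, against 12.0%. Read the other way, 98 of the 133 adenines reactive with 1M7 (73.7%) and 40 of 56 with NAI (71.4%) were DMS-reactive. All 3 reagents marked 30 adenines, DMS alone marked 106, and none of them marked 207. Across the 466 adenines the reactivity of DMS had r = 0.237 (rho = 0.322) with 1M7 and r = 0.201 (rho = 0.122) with NAI, as a description over nucleotides that share a sequence and its stop biases.

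The largest excesses of DMS over both other reagents were at its 5 highest nucleotides. A1681 had 11.6 with DMS and 0.0233 with 1M7 and -0.154 with NAI. A534 had 9.90, -0.0382 and -0.381 in the same order, and A1139 had 9.89, -0.0649 and 0.136. A352 (8.38, 0.686 and -0.204) and C1246 (7.79, 0.220 and -0.223) followed. Of the 20 strongest DMS adenines, 11 reached 0.3 with 1M7 and 7 with NAI, and 8 (40.0%) were under 0.3 with both, against 67.2% of all adenines.

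The reverse was seen at A1346 in the head, with 1.72 for DMS, 9.33 for 1M7 and 6.23 for NAI. A312 had 3.86, 1.45 and 9.98. A72 had 0.313, 2.31 and 5.29, and A417 had 0.614, 1.06 and 3.80. A1346, A312 and A417 stayed at 0.3 or more with DMS under every other control and divisor tried. A72 did not, with 0.0266 against the late control of the 1M7 set and 0.158 and 0.181 with the other divisors. A1183 is the exception, at -2.29 with DMS, 2.14 with 1M7 and -2.15 with NAI, over a control rate of 0.413 in the DMS set. Adenines with a ribose signal and no DMS signal were counted as well. The number at 0.3 with both 1M7 and NAI and under 0.3 with DMS was 6 (1.29% of adenines), beside 30 at 0.3 with all 3. With either of them and not with DMS it was 45 (9.66%). DMS reached 0.3 at 45.9% of all adenines.

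By stretch the 3 reagents had the same low point. From G1141 to A1287, 24.3% of adenines were reactive with DMS, 10.8% with 1M7 and 2.70% with NAI, each the lowest of 9 stretches. The NAI share is 1 of 37 adenines. The median control rate of the DMS set at these adenines, 0.00704, was the lowest of the 9 as well. No ratio to the control was made for 1M7 or NAI. From U1 to G290 the shares were 55.3%, 36.5% and 16.5%. In expansion segment 6 DMS marked 48.9% and NAI 6.67%, and 15 of its 22 DMS-reactive adenines were marked by DMS alone. Over the molecule it was 106 of 214. The share was higher from G1141 to A1287 (7 of 9) and nearly the same from G1288 to G1419 (10 of 15) and C1420 to A1631 (12 of 18). In the remaining stretches it was lower. From U547 to U639 DMS marked 48.0% and 1M7 44.0%, the highest share of 1M7.

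**Figure D4:**
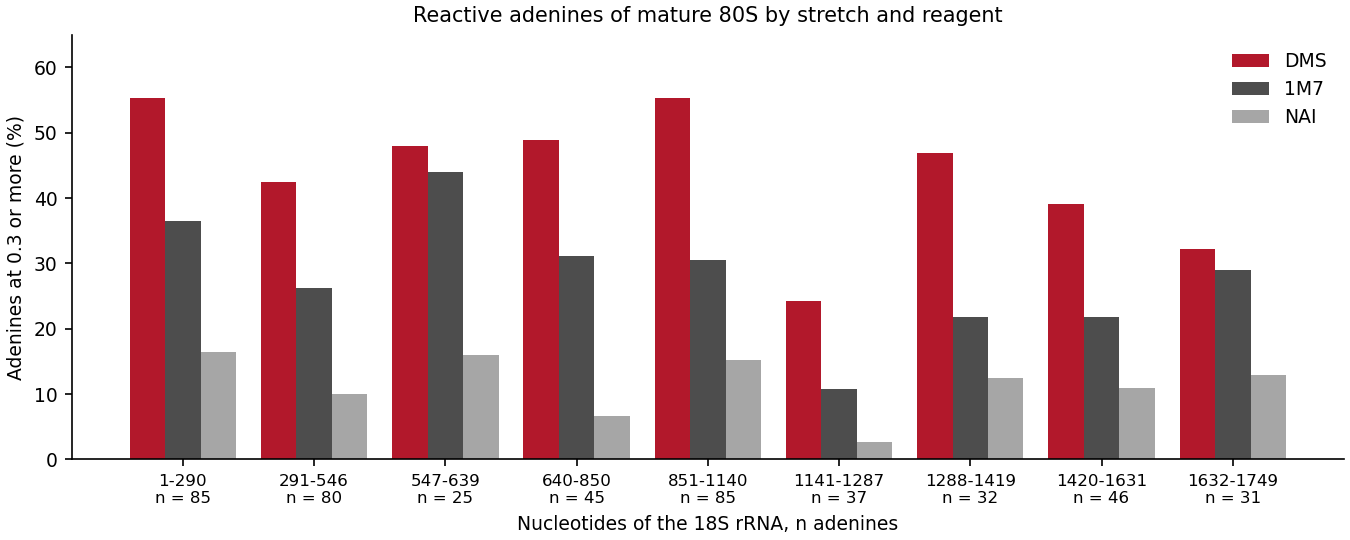
Share of adenines with a reactivity of 0.3 or more (vertical, percent) in each of 9 stretches of the 18S rRNA (horizontal, nucleotide numbers with the number of adenines), for DMS, 1M7 and NAI on 80S. All 3 reagents have their lowest share in the sixth group of bars, with 24.3%, 10.8% and 2.70%.

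Modified nucleotides and the decoding region were mostly near or below their control. So were most cytosines, guanines and uracils, of which 33.3%, 11.7% and 21.9% lay above their control over the molecule. Of 8 ribose-methylated adenines, which keep a free pairing edge, 1 was reactive, A619 (0.0787 with DMS, 0.0652 in the control, reactivity 0.365), against 45.9% of all adenines. With a divisor from adenines and cytosines alone A619 had 0.185, and with one from the untrimmed top 10% 0.211, both under 0.3. A974 (0.212), A420 (0.203) and A28 (0.194) were positive, while A100 (-0.692), A436 (-1.72) and A541 (-4.55) lay below the control of the DMS set. Their median of 0.125 compares with 0.256 over all adenines. The control rate was 0.280 at A541 and 0.181 at A436, and the DMS rate 0.111 and 0.117. In the late control and the DMSO column the untreated rate was lower, at 0.154 and 0.143 for A541 and 0.0931 and 0.0720 for A436. The DMS rate lay below both at A541 and above both at A436. At A100 the DMS rate of 0.0412 lay between the late control, 0.0480, and the DMSO column, 0.0327. None of the 3 ribose-methylated cytosines was reactive (C414 at 0.0576, C1007 at 0.0321 and C1639 at -1.09), against 7.67% of all cytosines. Their median of 0.0321 was above the -0.0406 of all cytosines. Acetylated C1280 had 0.105. The lowest value among the modified nucleotides was at ribose-methylated U578, with 0.0680 with DMS and 0.266 in the control, a reactivity of -5.33. The late control had 0.115 at U578 and the DMSO column 0.114. The DMS rate lay below these as well, but by less, so the size of this deficit rests on the control of the DMS set. Why that control was higher was not tested.

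Of 11 adenines with a control rate of 0.1 or more, 4 lay above their control. Between 0.05 and 0.1 it was 39 of 50, and under 0.05 356 of 405. The share reactive was highest in the middle class, at 64.0%, against 44.0% under 0.05. The control rate is itself a term of the difference, so these classes are not independent of it. The lowest adenines and cytosines after A541 were C99 (0.0840 with DMS, 0.251 in the control, reactivity -4.51), C1190 (-3.09), C1739 (-2.53) and C1022 (-2.36). The loop of helix h31 is printed for its modified U1191, with the same use of capitals.
C1180 to A1203, helix h31: cuuaAuuugacucAacacggggaa
C1190, U1191 and A1183 in it had control rates of 0.398, 0.833 and 0.413, and DMS rates of 0.283, 0.770 and 0.327. A1193, which reverse transcriptase reaches before U1191, was reactive at 1.83.

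Among the counterparts of bacterial decoding and P-site nucleotides, A1576 was reactive (0.0324 with DMS, 0.0167 in the control, reactivity 0.424). With the same 2 other divisors A1576 had 0.214 and 0.245, under 0.3. C1637 had 0.0593 over rates of 0.00285 and 0.000650. G577 in the loop of h18 had -2.15, G1150 -0.518 and the methylated G1575 -0.132, bases that DMS does not read at the pairing edge by this method.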

How the data were processed

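The authors deposited 1 table of drop-off rates, each a fraction from 0 to 1 for every nucleotide of the 18S sequence, with 17 columns that are means over the samples of a group, per the file headers and the labels' titles. The submitters' processing notes name Novoalign 2.07. How the rate was calculated, on which reference and with which filter is not given in the sources used here, and the depth behind each value is unknown. Per the labels' protocols, cDNA was primed with random hexamers. Of the columns, 6 were used here.

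Listed stops 2 to 1750 were assigned to the nucleotide 5' of each, giving 1749 nucleotides, with U written for T. Reactivity and thresholds were computed in Python 3.11.15 with numpy 2.4.6, pandas 2.3.3 and scipy 1.17.1, and unpaired probabilities with RNAplfold of ViennaRNA 2.7.2 (window 150, span 100). The steps were tested on simulated data. Nucleotides named are the highest 20 adenines, 10 cytosines, 4 guanines and 4 uracils, the 3 highest of each stretch, the 5 lowest, those with the largest excess over or under both other reagents, and listed modified or decoding nucleotides. Stretches and lists were chosen with earlier results of these data known. No test was made, since each side has 1 averaged column.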

Additional observations from a re-analysis of the deposited data

How the results depend on the processing

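Each side is 1 averaged column, so no sample could be left out, and no value has an interval. No paired analysis was possible because the deposited columns hold no single samples. Over 16 counts and shares and their alternatives, 65 of 123 values stayed within 1.5 times the main one or its allowed shift, and 58 did not. Counts below are of reactive nucleotides, by base and, for adenines with cytosines, by stretch named by its first nucleotide. In the main analysis there were 214 adenines, 26 cytosines, 8 guanines and 7 uracils, and by stretch 52 (U1), 39 (G291), 14 (U547), 28 (U640), 48 (U851), 10 (G1141), 15 (G1288), 22 (C1420) and 12 (C1632). Stops read at the listed nucleotide gave 107 adenines, 30 guanines and 87 uracils, and 28 (U1), 22 (G291), 12 (U640), 30 (U851), 5 (G1141), 13 (C1420) and 7 (C1632). With no control subtracted there were 81 cytosines, 102 guanines and 89 uracils, with 70 (G291) and 35 (C1420). The late control gave 15 cytosines, the DMSO control 13 uracils, and a control rate under 0.05 left 2 guanines. A divisor from adenines and cytosines alone gave 133 adenines, 11 cytosines and 5 guanines, and 32 (U1), 22 (G291), 7 (U547), 31 (U851), 5 (G1141), 7 (G1288) and 10 (C1420). A divisor from the untrimmed top 10% gave 13 cytosines and 5 guanines, and 8 (U547), 5 (G1141), 8 (G1288) and 10 (C1420). A threshold of 0.7 gave 117 adenines, 8 cytosines, 4 guanines and 4 uracils, and 31 (U1), 19 (G291), 7 (U547), 18 (U640), 24 (U851), 5 (G1141), 6 (G1288), 8 (C1420) and 7 (C1632). A DMS rate of at least 2 times the control as a further condition gave 129 adenines, 12 cytosines, 0 guanines and 4 uracils, and 18 (G291), 8 (U547), 28 (U851), 5 (G1141), 9 (G1288) and 9 (C1420). Among the 50 strongest adenines 34% were shared with 1M7, where lists of that size are 10.7% of adenines, and among the 100 strongest 52%, where they are 21.5%. Of 53 named reactive nucleotides, 282 of 297 values stayed at 0.3 or more, 12 fell under it, and 3 changed sign. The sign changed at C674 (-0.514) and U1253 (-1.52) with the late control and at U1253 (-0.0801) with the DMSO control. The 32 values at a control rate under 0.05 are the main values unchanged, so they had to stay. With no control subtracted a rate can only gain before scaling, and all 53 stayed. The late control kept 46 of 53, the DMSO control 51, and each other divisor 50. The cause of the shifts with another control was not tested.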

Other observations

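Of the last 50 listed stops, 16 had a rate above 0 in either column, and they were not scaled. The adenines of the decoding centre, A1755 and A1756, lie there. A1755 had a rate of 0.0306 with DMS and 0.0241 in the control. A1756 had 0.0219 with DMS and is listed at 0 in the control. A1765 had 0.0757 with DMS and 0.0208 in the control, the largest excess of the 16. C1751 had 0.00444 with DMS and 0.117 in the control, the largest deficit. The dimethylated adenines A1781 and A1782 are listed at 0 in both columns of the DMS set, while the DMSO column of 80S has 0.964 and 0.138 there.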
